A study of Homo sapiens with 9 samples.

Results

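The genes of fatty acid synthesis and desaturation were followed in SKMEL28 cells, a human melanoma line, after knockdown of p16 alone or of p16 together with ATR. The members are the 10 rows of the deposited count and FPKM tables whose symbol is ACLY, ACACA, FASN, SCD, FADS1, FADS2, ELOVL5, ELOVL6, ACSS2 or ACSL3, out of 48162 genes in the tables. All 10 were among the 15776 genes with enough counts to be tested. Each symbol named 1 row, and rows were taken by symbol alone. The 10 genes themselves were chosen with earlier results of these data known.

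Cells build fatty acids in the cytosol from acetyl-CoA, which ACLY makes by splitting citrate and ACSS2 makes from acetate. ACACA carboxylates acetyl-CoA to malonyl-CoA, FASN joins these units into palmitate, ELOVL enzymes lengthen the chain, SCD places the first double bond, FADS1 and FADS2 add double bonds to polyunsaturated chains, and ACSL3 couples finished fatty acids to coenzyme A. Many of these genes are known targets of the SREBP transcription factors, which also act on cholesterol synthesis, and proliferating tumor cells commonly make fatty acids even when lipids are supplied in serum.

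RNA-Seq was performed on 9 libraries, with 3 each of shCont (hairpin against GFP), shp16 (hairpin against p16) and shp16/shATR (hairpins against p16 and ATR). All groups were grown in DMEM with 5% FBS, received their hairpins by lentivirus and were kept in puromycin at 1 µg/ml for 3 days. The labels do not say which ATR hairpin was used, nor whether the shp16 cells were given any further virus to match the ATR hairpin. A figure legend of the paper calls the 3 values of a group for 1 transcript technical replicates from a single experiment. The p-values here therefore measure the spread between libraries, which may hold no variation between separate infections.

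Library totals ranged from 17314662 to 23588174 counts. The targeted genes were examined first. CDKN2A, which encodes p16, had a mean level in shCont of 97.7 ± 20.9 FPKM, against 70.6 ± 11.9 in the shp16 and 66.3 ± 4.33 in the shp16/shATR libraries (SD over 3 libraries), where FPKM counts fragments scaled by gene length and library total. Its fall in shp16 did not pass the test (log2 fold change −0.48 ± 0.16 SE, adjusted p = 0.0723 by edgeR, though it passed with DESeq2), and counts per gene do not separate the p16 transcript from others of the locus. ATR was at 10.5 ± 0.156 FPKM without and 4.88 ± 0.0372 with the ATR hairpin in p16 knockdown cells (SD over 3 libraries), a log2 fold change of −1.12 ± 0.22 (adjusted p = 0.0128 from edgeR). In shCont it was at 11.8 FPKM in replicates 2 and 3 but at 5.34 in replicate 1, near the level with the ATR hairpin. Replicate 1 of shCont and replicate 1 of shp16 stood apart from the other libraries of their groups, with a chi-square per degree of freedom over genes of 68.5 and 83.4 in shCont and of 37.9 and 37.2 in shp16, against 5.15 and 1.94 for the remaining pair of each group. Results that rest on them are given below with and without them. All 8 melanocyte markers examined were present, with a summed level of 4840 to 5460 FPKM over the shCont libraries, 2560 to 4760 over shp16 and 4010 to 4930 over shp16/shATR. Within shp16, the marker PMEL was at 1110 FPKM in replicate 1 but at 2920 and 2890 in replicates 2 and 3. TYRP1 and S100B, 2 of the 8, fell with p16 knockdown by 0.43 ± 0.11 and 0.68 ± 0.15 on the log2 scale (adjusted p = 0.0228 and 0.013 from edgeR). Of all tested genes, 7.59% fell there. With the ATR hairpin on top, S100B rose and TYRP1 fell, 1 of the 8 each, against 2.73% and 3.49% of all tested genes. Of 8 markers of other cell types, 7 were in the table, with a summed level of 11.4 to 13.7, 10.9 to 17.1 and 11 to 13 FPKM in shCont, shp16 and shp16/shATR. Most of this sum was the fibroblast marker LUM, at 8.12 to 14.6 FPKM over the libraries. The immune markers PTPRC and CD3E were listed at 0 in every library. The keratin KRT5 was at 0 in all shCont libraries and at 0.751 to 1.21 FPKM in shp16, while KRT14 went from at most 0.0962 FPKM to between 1.29 and 1.67. The part of these marker changes in the results below was not tested.

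Promoter sequence was available for 9 of the 10 genes in RefSeq (build GRCh38.p14), in 14 windows that reach from 250 bases before to 50 bases after each start, and FASN had no entry. Motifs were searched on both strands, each independently of the others, so that matches may overlap. The NF-Y box CCAAT, to which the trimeric factor NF-Y binds, was present in 9 of the 14 windows (7 of 9 genes), against 34.6% of all 35116 windows in the table (39.7% of genes). The Sp1 box GGGCGG was present in 11 windows (8 of 9 genes), against 45.0% of all windows (48.3% of genes). The sterol regulatory element TCACNCCAC was in none of the 14 windows and in 1.13% of all windows, and the E-box CACGTG was in 1 of them, that of ELOVL5, and in 7.26% of all windows. The windows of 1 gene can overlap, so they are not independent, and a match is only a match of letters. The 250 bases before the start are shown for ACSS2 (the first of 2 windows, chr20:34874739-34874988, plus strand) and SCD (chr10:100346983-100347232, plus strand), which were both higher in shp16/shATR than in shp16, for ACLY (the first of 2 windows, chr17:41919023-41919272, minus strand), which was not, and for ELOVL5 (chr6:53348951-53349200, minus strand), which holds the E-box. Capitals mark the NF-Y box or its reverse complement and, in ELOVL5 alone, also the E-box.
ACSS2: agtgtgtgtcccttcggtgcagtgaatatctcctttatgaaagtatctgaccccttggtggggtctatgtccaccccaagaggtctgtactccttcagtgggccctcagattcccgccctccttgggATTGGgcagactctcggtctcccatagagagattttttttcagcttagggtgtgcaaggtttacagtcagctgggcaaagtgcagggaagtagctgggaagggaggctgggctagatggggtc
SCD: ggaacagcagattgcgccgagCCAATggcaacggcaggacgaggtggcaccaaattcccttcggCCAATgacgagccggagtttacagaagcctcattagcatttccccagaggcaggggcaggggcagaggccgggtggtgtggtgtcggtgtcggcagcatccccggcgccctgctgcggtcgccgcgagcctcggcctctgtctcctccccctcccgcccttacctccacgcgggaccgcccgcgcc
ACLY: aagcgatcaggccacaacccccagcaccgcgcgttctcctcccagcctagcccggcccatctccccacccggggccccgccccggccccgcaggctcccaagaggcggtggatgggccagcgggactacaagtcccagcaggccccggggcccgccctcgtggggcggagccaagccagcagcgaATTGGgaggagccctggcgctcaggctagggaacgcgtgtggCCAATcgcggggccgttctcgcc
ELOVL5: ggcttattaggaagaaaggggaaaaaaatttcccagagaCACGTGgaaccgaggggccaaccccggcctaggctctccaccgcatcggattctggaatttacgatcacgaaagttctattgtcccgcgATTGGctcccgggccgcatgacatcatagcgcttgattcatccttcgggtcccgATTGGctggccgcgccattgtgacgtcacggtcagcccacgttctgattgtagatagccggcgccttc
SCD, ACLY and ELOVL5 each carried the NF-Y box at 2 places in this stretch, and ACSS2 at 1.

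Levels per gene length placed several of these enzymes among the most abundant transcripts of the cells. In shCont the mean level was 155 FPKM for SCD, 111 for ACSL3 and 92.3 for FASN, so that only 2.0%, 3.3% and 4.1% of the tested genes lay above them. The ranges over libraries of these neighbours overlapped between SCD and ACSL3 and between ACSL3 and FASN. ACLY (51.8 FPKM) and ELOVL5 (40.5) came next and overlapped with each other, followed by FADS1 (20.3), ACSS2 (16.4), ACACA (8.85), ELOVL6 (4.57) and FADS2 (3.83), each apart from the next. In shp16/shATR, SCD reached 332 FPKM and FASN 202, and ACSS2 at 40.0 FPKM stood above FADS1 at 21.1. The 10 genes took 0.239% to 0.319% of all counts in the shCont libraries, 0.377% to 0.416% with p16 knockdown and 0.5% to 0.519% with both hairpins, and these ranges did not overlap.

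The suppliers of acetyl-CoA followed different courses over the groups. ACLY was at 37.6, 58.2 and 59.5 FPKM in shCont, at 81.8, 77.3 and 75.7 in shp16 and at 63.3, 63.2 and 65.7 in shp16/shATR. The shp16 libraries were the highest, the shp16/shATR libraries lay between, and replicate 1 of shCont was low. ACSS2 was at 15.8, 16.3 and 17.0 FPKM in shCont, at 22.3, 25.1 and 25.4 in shp16 and at 38.9, 40.9 and 40.2 in shp16/shATR. ACSS2 thus climbed in steps without overlap, with the 3 libraries of each group close together.

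The enzymes that build palmitate were both lowest in shCont. ACACA, the committed step, was at 5.55, 10.3 and 10.7 FPKM in shCont, at 15.9, 14.1 and 14.8 in shp16 and at 14.9, 15 and 15.5 in shp16/shATR. The last groups overlapped, and replicate 1 of shCont was again low. FASN, which makes palmitate, was at 96.6, 88.2 and 92.2 FPKM in shCont, at 173, 149 and 153 in shp16 and at 200, 204 and 202 in shp16/shATR. FASN did not overlap between any of the groups, and no shCont library stood out for it.

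Of the elongases, ELOVL6, which extends palmitate to stearate, was at 4.37, 4.62 and 4.71 FPKM in shCont, at 5.49, 5.87 and 6.07 in shp16 and at 7.79, 7.70 and 8.55 in shp16/shATR. ELOVL5, which extends polyunsaturated chains, was at 31.6, 44.7 and 45.2 FPKM in shCont, at 59.7, 55.7 and 55.9 in shp16 and at 62.2, 64.0 and 66.8 in shp16/shATR. Neither overlapped between groups, and replicate 1 of shCont was low for ELOVL5 only.

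Among the desaturases, SCD, which makes oleate from stearate, was at 105, 173 and 186 FPKM in shCont, at 219, 194 and 194 in shp16 and at 328, 322 and 348 in shp16/shATR. The highest shCont library came close to the lowest shp16 library, whereas all shp16/shATR libraries were far above. FADS1, the delta-5 desaturase, was at 18.6, 21.4 and 20.9 FPKM in shCont, at 30.2, 25.3 and 24.7 in shp16 and at 20.5, 20.9 and 21.9 in shp16/shATR. FADS2, the delta-6 desaturase, was at 4.18, 3.60 and 3.71 FPKM in shCont, at 6.05, 4.55 and 4.24 in shp16 and at 3.62, 4.02 and 4.23 in shp16/shATR. For both genes the shp16 libraries were highest, led by replicate 1, and the other groups overlapped. ACSL3, which activates fatty acids at lipid droplets and the endoplasmic reticulum, was at 88.4, 119 and 124 FPKM in shCont, at 94.3, 96.9 and 95.8 in shp16 and at 113, 111 and 115 in shp16/shATR. ACSL3 was the 1 member with its mean level lowest in shp16.

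**Figure D1:**
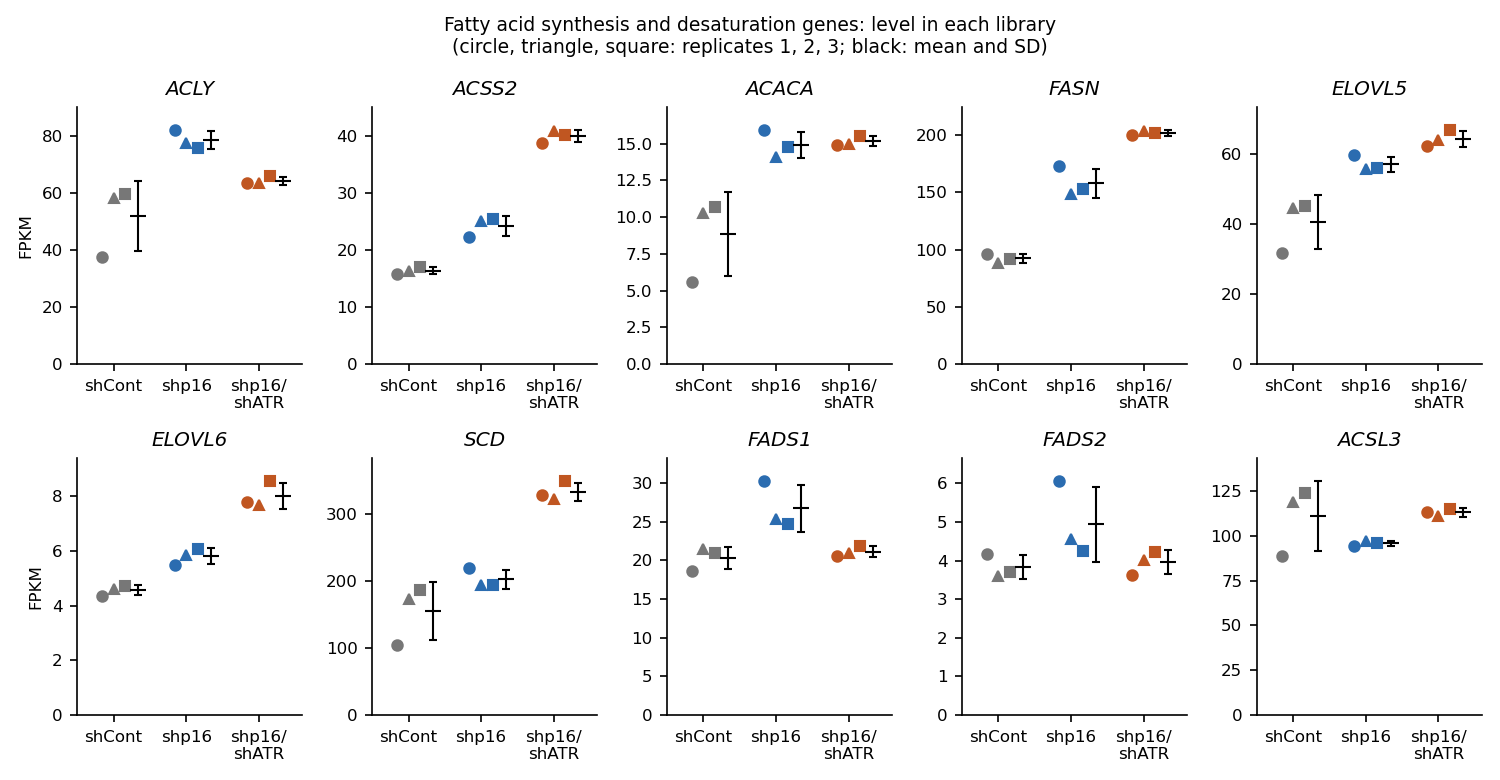
FPKM (vertical axis, from 0, a separate scale per gene) of the 10 genes in each library of shCont, shp16 and shp16/shATR; circle, triangle and square are replicates 1, 2 and 3, and the black marks are the mean and SD of 3 libraries. The libraries of ACSS2, FASN, SCD, ELOVL5 and ELOVL6 rise in steps over the groups without overlap, while ACLY, FADS1 and FADS2 are highest in shp16. Replicate 1 of shCont is low for ACLY, ACACA, ELOVL5, SCD and ACSL3.

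Some genes share genomic sequence, which limits how their counts can be read. In the coordinates of the deposited table, all of FADS1 (chromosome 11, 61567099 to 61596790) lies within FADS2 (61560452 to 61634826) on the opposite strand, and FADS2 shares 4265 bases with FEN1 on its own strand. The sources do not say whether strand was used in counting, so reads of FADS1, FADS2 and FEN1 may not be fully separated. FEN1, a nuclease of DNA replication, had 32.3 ± 3.12, 24.9 ± 0.509 and 18.9 ± 0.343 FPKM in shCont, shp16 and shp16/shATR (SD over 3 libraries), and its level was lower in each successive group, unlike FADS1 and FADS2, which were highest in shp16. ACSS2 shares 715 bases with GGT7 on the other strand, which had 31.7 ± 2.89, 28.4 ± 8.85 and 43.4 ± 6.77 FPKM in the same order. The mean of GGT7 was highest in shp16/shATR, as for ACSS2, but lowest in shp16, unlike ACSS2. Reads of ACSS2 and GGT7 may not be fully separated either. The SCD pseudogene SCDP1 was listed at 0 in every library.

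Knockdown of p16 was compared with shCont to see which of these enzymes changed with loss of p16. Of the 10 genes, 7 rose and 0 fell at an adjusted p under 0.05 (edgeR's quasi-likelihood test, adjusted over all 15776 genes), spread over acetyl-CoA supply, palmitate synthesis, elongation and polyunsaturated desaturation. At an unadjusted p under 0.05, 9 were higher and 0 lower. Of all tested genes, 7.23% were higher by this criterion and 7.59% lower. The median log2 fold change was 0.46 over the 10 genes and −0.02 over all tested genes. In 9 of the 10 genes all shp16 libraries lay above all shCont libraries, as in 16% of the tested genes, and in 0 they lay below, against 16.7%. In bulk RNA, a change in the share of cells that express a gene and a change in RNA per cell cannot be told apart.

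FASN rose by 0.79 ± 0.12 on the log2 scale (SE, adjusted p = 0.00151) and ACACA by 0.78 ± 0.19 (adjusted p = 0.0186), both by edgeR. Each was thus about 1.7 times its shCont level (1.73-fold and 1.71-fold). ACLY rose by 0.62 ± 0.15 (adjusted p = 0.0174) and ACSS2 by 0.57 ± 0.09 (adjusted p = 0.00173), so that both sources of acetyl-CoA were raised together. ELOVL5 rose by 0.51 ± 0.13 (adjusted p = 0.0221), FADS1 by 0.41 ± 0.12 (adjusted p = 0.0433) and ELOVL6 by 0.35 ± 0.10 (adjusted p = 0.0338). SCD and FADS2 did not pass the test, with log2 fold changes of 0.41 ± 0.18 (adjusted p = 0.141) and 0.38 ± 0.17 (adjusted p = 0.158). ACSL3 had a log2 fold change of −0.19 ± 0.12 (adjusted p = 0.312).

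The size of several of these changes rested on 1 library of each group. With replicate 1 of shCont and of shp16 both left out, the same 7 genes rose, against 16.9% of all genes higher. ACSL3 alone fell in that fit, by 0.34 (adjusted p = 0.000124 from edgeR), against 15.8% of all genes lower. ACLY was then at 0.37, ACACA at 0.46, ELOVL5 at 0.31 and FADS1 at 0.23, and SCD was at 0.11 (adjusted p = 0.20). FASN at 0.74, ACSS2 at 0.59 and ELOVL6 at 0.35 moved little. Without replicate 1 of shp16 alone, FASN and ACSS2 were the 2 genes that passed, and without replicate 3 of shp16 4 passed. Over all genes 4.52% and 4.16% were higher in these fits, against 7.23% with all libraries. FASN and ACSS2 passed in all 20 other fits at this threshold, FADS1 in 8 and ELOVL6 in 6.

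Knockdown of ATR was compared within p16 knockdown cells. SCD, ACSS2 and ELOVL6 rose in shp16/shATR against shp16, and 0 of the 10 genes fell at an adjusted p under 0.05 by edgeR or DESeq2, with 4 higher and 1 lower at an unadjusted p under 0.05 in edgeR. Of all tested genes, 2.73% were higher and 3.49% lower. The median log2 fold change was 0.20 over the 10 genes and 0.0021 over all tested genes. All shp16/shATR libraries lay above all shp16 libraries in 6 of the 10 genes, as in 17.9% of the tested genes, and below them in 3, ACLY, FADS1 and FADS2, as in 19.6%.

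ACSS2 rose by 0.72 ± 0.09 on the log2 scale (SE, 1.64-fold, adjusted p = 0.00142 from edgeR), SCD by 0.71 ± 0.18 (1.63-fold, adjusted p = 0.0361) and ELOVL6 by 0.46 ± 0.10 (1.38-fold, adjusted p = 0.0191). For ACSS2 and ELOVL6 this was an increase on top of that seen with p16 knockdown, whereas SCD had not passed in that comparison. FASN was at 0.34 ± 0.12 (adjusted p = 0.14), ACSL3 at 0.23 ± 0.12 (adjusted p = 0.312), ELOVL5 at 0.16 ± 0.13 (adjusted p = 0.543) and ACACA at 0.01 ± 0.19 (adjusted p = 0.984). ACLY, FADS1 and FADS2 had log2 fold changes of −0.30 ± 0.15 (adjusted p = 0.29), −0.35 ± 0.12 (adjusted p = 0.124) and −0.34 ± 0.17 (adjusted p = 0.303). These 3 genes had been highest in shp16, and their shp16/shATR libraries were all below.

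Replicate 1 of shCont is in neither group but enters the spread that the model estimates over all libraries. Without it, or with shp16 and shp16/shATR fitted alone, 5 genes rose (FASN and ACSL3 in addition) and ACLY and FADS1 fell. Without it the log2 fold changes were −0.30 for ACLY (adjusted p = 0.02) and −0.35 for FADS1 (adjusted p = 0.0323), FASN was at 0.34 (adjusted p = 0.0268) and ACSL3 at 0.24 (adjusted p = 0.0365), all by edgeR. In that fit 8.94% of all genes were higher and 11% lower, so the fall of 2 of 10 genes was near the share over all genes. With replicate 1 of shCont and of shp16 both left out, 6 genes rose and 2 fell, against 12.4% and 14.3% of all genes, and FADS1 was at −0.21. ACSS2 passed in every other fit, including each that left out 1 library, while SCD passed in 9 of 20 and ELOVL6 in 13 of 20. Where 1 shp16/shATR library or replicate 2 or 3 of shp16 was left out, ACSS2 was the 1 gene that passed. In those fits 0.767% to 1.03% of all genes were higher, against 2.73% with all libraries.

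With both hairpins compared against shCont, 6 of the 10 genes rose and 0 fell (edgeR and DESeq2, and 6 and 0 also at an unadjusted p under 0.05 in edgeR), against 10.9% of all tested genes higher and 12.7% lower. All shp16/shATR libraries lay above all shCont libraries in 7 genes, as in 19.9% of tested genes, and in 0 genes below, against 21.6%. ACSS2 rose most, by 1.29 ± 0.09 on the log2 scale (SE, 2.45-fold, adjusted p = 4.01e-06 from edgeR), followed by FASN at 1.13 ± 0.12 (2.19-fold, adjusted p = 8.23e-05) and SCD at 1.12 ± 0.18 (2.17-fold, adjusted p = 0.000953). ELOVL6 rose by 0.81 ± 0.10 (adjusted p = 0.000164), ACACA by 0.79 ± 0.19 (adjusted p = 0.0106) and ELOVL5 by 0.68 ± 0.13 (adjusted p = 0.00307). ACLY at 0.32 ± 0.15 (adjusted p = 0.143), FADS1 at 0.06 ± 0.12 (adjusted p = 0.762), FADS2 at 0.04 ± 0.17 (adjusted p = 0.881) and ACSL3 at 0.04 ± 0.12 (adjusted p = 0.846) did not pass. The same 6 genes passed whichever 1 of the 9 libraries was left out. This comparison shares its libraries with the other comparisons and adds no independent evidence.

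**Figure D2:**
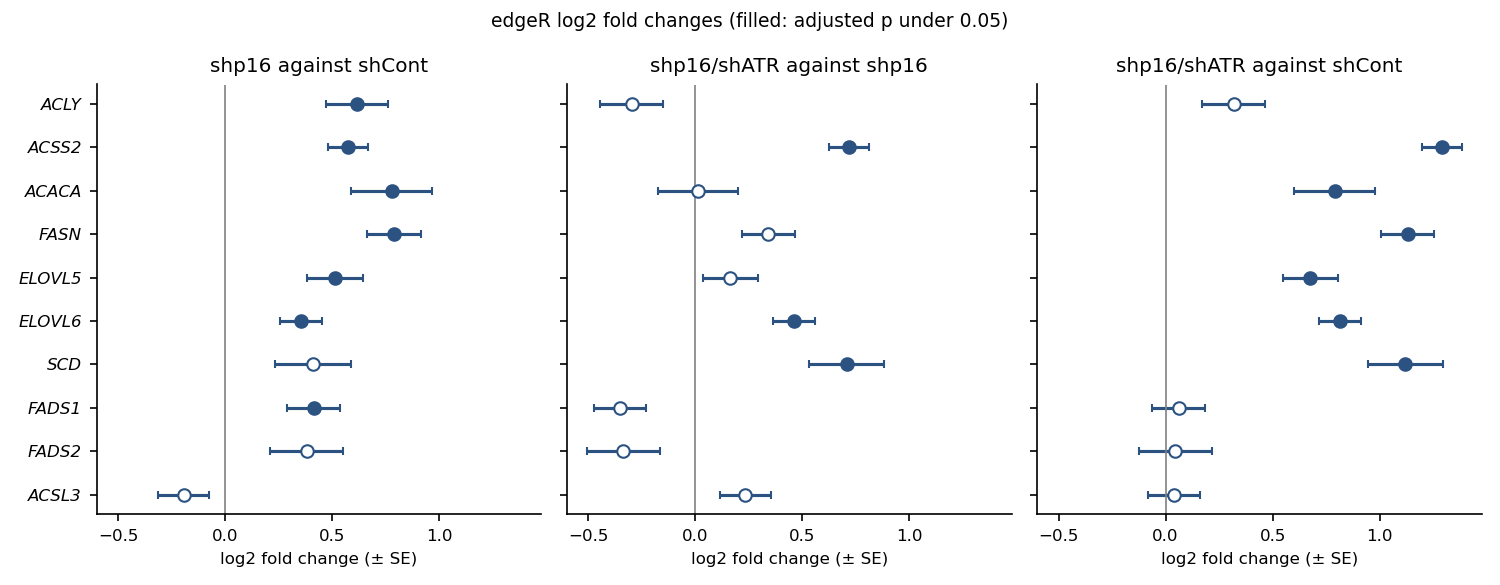
Log2 fold changes (horizontal axis) of the 10 genes with standard errors, from edgeR, in the 3 comparisons; filled points had an adjusted p under 0.05. In shp16 against shCont 7 points are filled, in shp16/shATR against shp16 the filled points are ACSS2, ELOVL6 and SCD, and ACLY, FADS1 and FADS2 lie below 0 there.

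Ratios of genes of like function within a library do not depend on depth or scaling. The pairs were chosen after the values were seen. The ratio of ACSS2 to ACLY, acetate against citrate as a source of acetyl-CoA, was 0.272 to 0.336 in the shp16 libraries and 0.612 to 0.648 in the shp16/shATR libraries. It was therefore 2.02 times as high with the ATR hairpin, without overlap. In shCont it was 0.280 and 0.286 in replicates 2 and 3 but 0.419 in replicate 1. The ratio of SCD to FADS1 was 7.24 to 7.88 in shp16 and 15.4 to 16 in shp16/shATR, a 2.07-fold difference, and 5.64 to 8.89 in shCont. All 3 shp16/shATR libraries thus had more SCD transcript per FADS1 transcript than any other library. The ratio of ELOVL6 to ELOVL5 went from 0.102 ± 0.00881 to 0.125 ± 0.00394 when the ATR hairpin was added (SD over 3 libraries), a 1.22-fold difference, and was 0.115 ± 0.020 in shCont. For each of these differences the exact permutation test, two-sided, had p = 0.1 from shp16 to shp16/shATR, the smallest that 3 libraries against 3 allow, and 0.18 after Benjamini-Hochberg adjustment over the 9 relations computed, so none could pass 0.05. Between shp16 and shCont all 3 ratios overlapped (exact permutation p = 0.8, 1.0 and 0.6 in the same order).

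**Figure D3:**
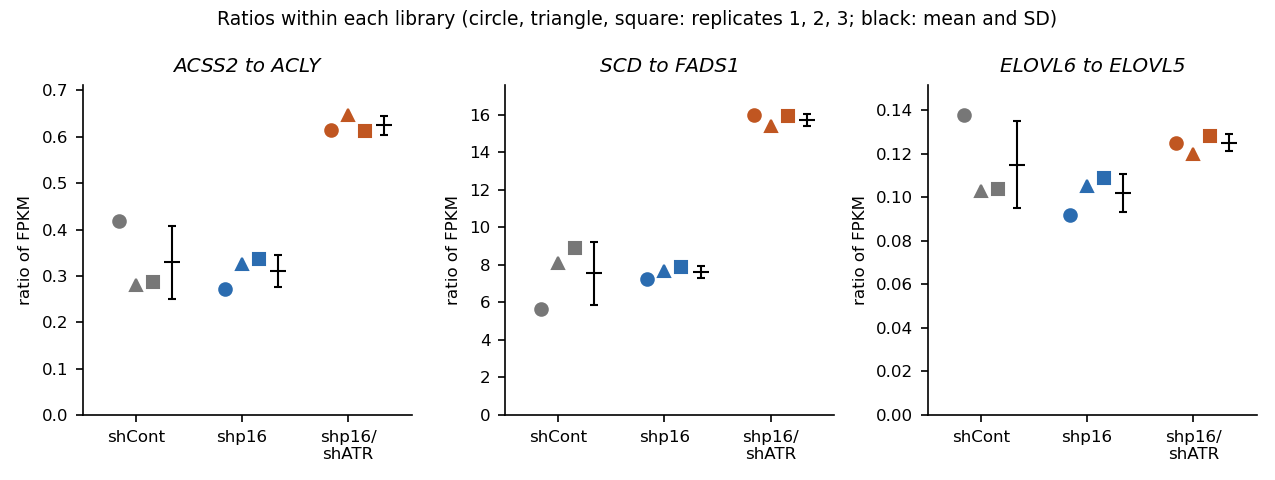
Ratio of the FPKM of 2 genes within each library (vertical axis, from 0), by group; circle, triangle and square are replicates 1, 2 and 3 and the black marks the mean and SD of 3 libraries. ACSS2 to ACLY and SCD to FADS1 are about doubled in shp16/shATR (2.02-fold and 2.07-fold against shp16), and shCont replicate 1 is apart in each panel.

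Of 13 regulators of the pathway, 11 were tested. In shp16 against shCont 3 rose and 0 fell (edgeR, median log2 fold change 0.05), against 7.23% and 7.59% of all tested genes. By DESeq2 or at an unadjusted p under 0.05, 0 of the regulators were lower as well. Without replicate 1 of shCont, however, 3 rose and 1 fell, against 13.4% and 12.5% of all genes. With replicate 1 of shp16 left out as well, 4 rose and 2 fell, against 16.9% and 15.8%. SREBF2, which encodes the SREBP of cholesterol synthesis, was at 75.8, 81.9 and 83.0 FPKM in shCont, 118, 119 and 119 in shp16 and 123, 122 and 122 in shp16/shATR. It rose by 0.57 ± 0.10 on the log2 scale in shp16 (adjusted p = 0.00236 from edgeR) and was at 0.04 ± 0.10 in shp16/shATR against shp16 (adjusted p = 0.875). SREBF1, which encodes the SREBP isoforms best known for fatty acid synthesis, was at 45.5, 40.5 and 35.8 FPKM in shCont, 30.8, 36.3 and 36.8 in shp16 and 38.3, 39.7 and 35.4 in shp16/shATR. Its libraries overlapped in each comparison, with −0.23 ± 0.12 (adjusted p = 0.221) for p16 knockdown and 0.12 ± 0.12 (adjusted p = 0.627) for the ATR hairpin on top. MLXIPL, which encodes the glucose-responsive factor ChREBP, had at most 1 count in any library. INSIG1, an SREBP target whose product retains SREBPs in the endoplasmic reticulum, was at 8.63, 9.17 and 8.98 FPKM in shCont, 20.9, 22.2 and 21.5 in shp16 and 70.9, 69.6 and 67.6 in shp16/shATR. It rose in both steps, 2.42-fold and 3.21-fold, and was the 1 regulator that passed with the ATR hairpin (adjusted p = 9.72e-06 from edgeR). Over all tested genes 2.73% were higher in that step. Without replicate 1 of shCont 4 regulators rose there and 0 fell, against 8.94% and 11% of all genes. With replicate 1 of shp16 left out as well, 4 rose and 2 fell in that step, against 12.4% and 14.3%. MID1IP1, which encodes an activator of acetyl-CoA carboxylase, rose by 0.34 ± 0.10 with p16 knockdown (adjusted p = 0.0397) and was at 0.26 ± 0.10 with the ATR hairpin (adjusted p = 0.157).

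Of 8 genes that supply citrate and NADPH, 2 rose with p16 knockdown and 0 fell, against 7.23% and 7.59% of all tested genes. The log2 fold change was positive in all 8, with a median of 0.34. The 2 that rose were ACSS1, the mitochondrial acetate enzyme (0.79 ± 0.09, adjusted p = 0.000233 from edgeR), and CS, citrate synthase (0.56 ± 0.09, adjusted p = 0.00255). With the ATR hairpin, 0 of the 8 rose and 0 fell at this threshold by edgeR or DESeq2, against 2.73% and 3.49% by edgeR. At an unadjusted p under 0.05 in edgeR, 0 of the 8 were higher and 1 lower. ACSS1, at −0.06 ± 0.09 there (adjusted p = 0.78), did not pass. In shp16/shATR against shCont 5 rose, against 10.9% of all tested genes. Among them was PGD, an NADPH-producing enzyme of the pentose phosphate pathway, which rose by 0.52 ± 0.15 (adjusted p = 0.0235 from edgeR). Without replicate 1 of shCont, 6 rather than 2 rose with p16 knockdown, against 13.4% of all genes. With the ATR hairpin 0 rose and 1 fell in that fit, against 8.94% and 11%. With replicate 1 of shp16 left out as well, 5 rose and 1 fell with the ATR hairpin, against 12.4% and 14.3%.

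Paralogs and partner enzymes formed a list of 24 other synthesis genes, of which 23 were tested. With p16 knockdown 3 rose and 4 fell (median log2 fold change −0.00105), against 7.23% and 7.59% of all tested genes. With the ATR hairpin 1 rose and 2 fell, against 2.73% and 3.49%. In that step 0 and 0 passed without replicate 1 of shp16, against 1.29% and 1.83%. Without replicate 1 of shCont, 5 rose and 5 fell with p16 knockdown, against 13.4% and 12.5%. SCD5, the second human stearoyl-CoA desaturase, was at 6.03, 6.88 and 8.38 FPKM in shCont, 4.24, 5.04 and 4.90 in shp16 and 3.39, 2.96 and 3.47 in shp16/shATR. It fell in both steps, by 0.58 ± 0.14 (adjusted p = 0.0167) and by 0.53 ± 0.14 (adjusted p = 0.0471 from edgeR). SCD had log2 fold changes of 0.41 and 0.71 in these steps and passed in the ATR step only. Neither fall of SCD5 passed without replicate 1 of shp16 (adjusted p = 0.059 and 0.0861). ACACB, the mitochondrial carboxylase paralog, rose by 0.66 ± 0.11 in shp16 (adjusted p = 0.00205) and was at 0.21 ± 0.11 in the ATR step (adjusted p = 0.315).

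ELOVL7, an elongase of saturated very long chains, was at 4.40, 6.14 and 5.99 FPKM in shCont, 0.971, 1.04 and 1.16 in shp16 and 1.21, 1.10 and 1.21 in shp16/shATR. It fell by 2.37 ± 0.15 on the log2 scale with p16 knockdown (adjusted p = 2.17e-06 from edgeR), a larger change than that of any of the 10 genes. ELOVL2, which extends polyunsaturated chains, was at 5.38, 7.83 and 8.52 FPKM in shCont, 12.2, 11.7 and 10.8 in shp16 and 7.77, 7.61 and 7.22 in shp16/shATR. It rose by 0.69 ± 0.15 (adjusted p = 0.00882) and fell by 0.63 ± 0.15 (adjusted p = 0.0279). FADS3, a neighbour of FADS1 and FADS2, rose by 0.77 ± 0.19 with the ATR hairpin (adjusted p = 0.0318), where those genes did not, and the ATR steps of FADS3 and ELOVL2 did not pass without replicate 1 of shp16 (adjusted p = 0.113 and 0.103). DEGS1, the ceramide desaturase, fell by 0.50 ± 0.09 with p16 knockdown (adjusted p = 0.00438), and HSD17B8, of mitochondrial fatty acid synthesis, rose by 0.76 ± 0.20 (adjusted p = 0.0249).

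Among 17 genes of fatty acid activation and transport, 14 were tested. With p16 knockdown 0 rose and 1 fell, SLC27A3 (−0.58 ± 0.13, adjusted p = 0.0123 from edgeR), against 7.23% and 7.59% of all tested genes. With the ATR hairpin 0 changed at an adjusted p under 0.05 by edgeR or DESeq2, against 2.73% higher and 3.49% lower by edgeR. At an unadjusted p under 0.05, 2 of the 14 were higher and 5 lower with p16 knockdown, and 1 was higher and 2 lower with the ATR hairpin. Without replicate 1 of shCont, 1 rose and 2 fell in the first comparison, against 13.4% and 12.5%. In the second 2 rose and 1 fell, against 8.94% and 11%. ACSL4, the paralog of ACSL3 that prefers arachidonate, was at 10.9, 18.9 and 20.4 FPKM in shCont, 22.0, 19.2 and 19.1 in shp16 and 28.1, 27.0 and 30.0 in shp16/shATR. It was at 0.48 ± 0.19 in the ATR step (adjusted p = 0.163) and passed there without replicate 1 of shCont (adjusted p = 0.00449).

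Genes of cholesterol synthesis, the other pathway under SREBP control, also rose in both steps. Their list was chosen with its response in these libraries known and is not independent evidence. Of its 21 genes, 14 rose and 0 fell with p16 knockdown (median log2 fold change 0.56, against 0.46 for the 10 fatty acid genes). Of all tested genes, 7.23% were higher and 7.59% lower. With the ATR hairpin 10 of the 21 rose and 0 fell (median 0.47, against 0.20 for the 10), against 2.73% and 3.49% of all tested genes. In that step 16 rose without replicate 1 of shCont (8.94% of all genes) but 7 without replicate 1 of shp16 (1.29%). In both steps 0 of the 21 were lower by DESeq2 or at an unadjusted p under 0.05 in edgeR. The largest rises with the ATR hairpin were those of TM7SF2, at 2.01 ± 0.25 (adjusted p = 0.00116 from edgeR), FDPS and SQLE, at 0.97 ± 0.19 and 0.90 ± 0.11. ACSS2 and SCD, at 0.72 and 0.71, lay above the median of that list, while ACLY, FADS1 and FADS2 lay below 0. With p16 knockdown HMGCS1 rose by 1.39 ± 0.17 and CYP51A1 by 1.34 ± 0.23, both above the rise of FASN. The difference between the lists was not tested.

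**Figure D4:**
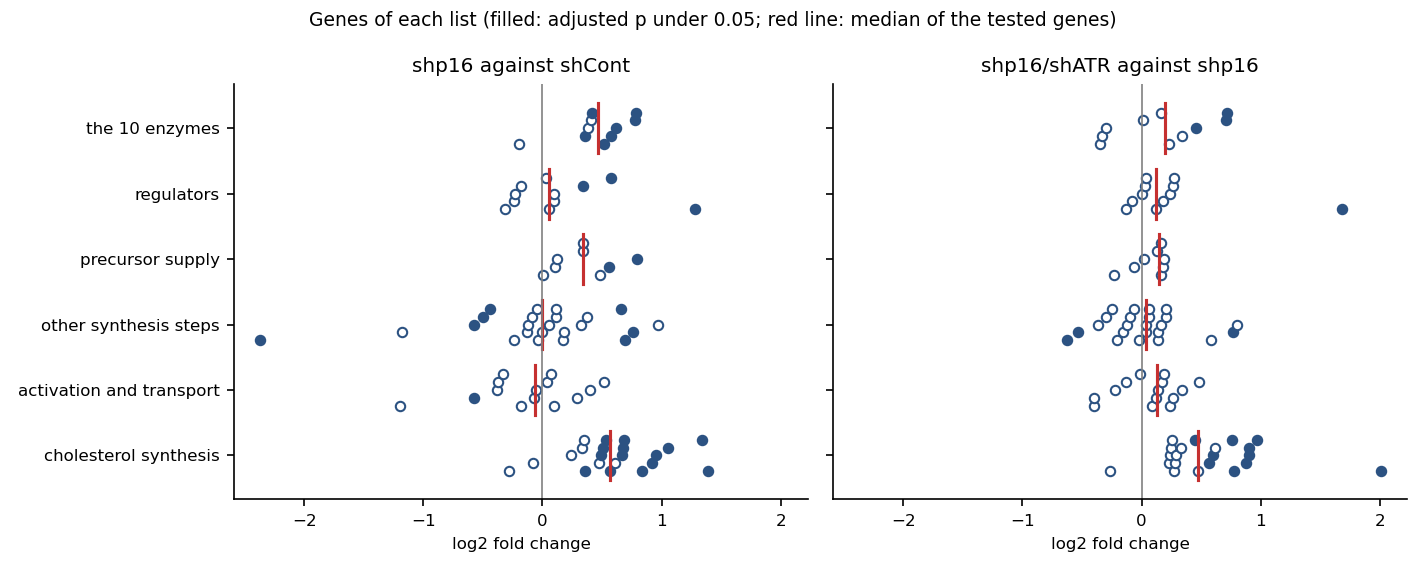
Log2 fold changes (horizontal axis) of the tested genes of each list, 1 point per gene, with p16 knockdown (left) and with the ATR hairpin on top (right); filled points had an adjusted p under 0.05 by edgeR and the red line is the median of the list. The 10 enzymes and the cholesterol synthesis genes lie mostly to the right of 0 with p16 knockdown (medians 0.46 and 0.56), while the other synthesis steps lie on both sides, down to ELOVL7 at −2.37.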

How the data were processed

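RNA was extracted with Trizol and libraries were made with a NEBNext kit. Per the labels, STAR 2.6.1 and DESeq2 are among the tools used and GRCh38 is the build, with roles not given in the sources used here. The gene coordinates of the deposited tables differed from GRCh38 annotation for all 10 genes, so they are printed only as deposited. The authors deposited raw read counts per gene, without normalization, and FPKM values, each checked to equal the count scaled by gene length and library total (largest relative difference 4.22e-07). By this match the 3 shp16/shATR count columns, which share 1 name, were assigned to replicates. Columns left unused numbered 0.

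Counts of all 9 libraries were fitted with edgeR 4.0.16 (TMM, filterByExpr, quasi-likelihood test) in R 4.3.3, with 1 coefficient per group and Benjamini-Hochberg adjustment over 15776 genes at 0.05. Standard errors were the log2 fold change divided by the root of F. Ratios were taken from FPKM and tested with scipy 1.17.1. Alternatives used DESeq2 1.42.0, limma 3.58.1 on log2 FPKM plus 1 or 0.1, other scalings, filters and thresholds, the groups compared alone, the replicate number as a block, and each library left out. Leaving out replicate 1 of shCont and of shp16 together was chosen after seeing the data, as were the ratios. In simulated data for shp16 against shCont, 91 of 100 genes changed by 1 on the log2 scale and 16 of 100 changed by 0.5 were recovered among 15443 genes, with 6 other calls.

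The 10 genes and all lists were chosen with earlier results of these data known. Text names the 10 genes, CDKN2A, ATR, SREBF1, SREBF2, MLXIPL, SCD5, ACACB, ACSL4 and, of each list and comparison, up to 3 rises and 3 falls past the threshold. Some genes that this rule would name are not reported here. FEN1, GGT7 and SCDP1 were added for shared sequence, and PTPRC, CD3E, KRT5, KRT14 and LUM as markers.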

Additional observations from a re-analysis of the deposited data

How the results depend on the processing

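The number of the 10 genes past the threshold in shp16 against shCont was 7, and 2 with only the groups compared, with limma on log2(FPKM + 1) without a filter or at an adjusted p of 0.01. It ranged from 2 (without shp16 replicate 1) to 8 when each library was left out. In shp16/shATR against shp16 the number was 3, 7 with only the groups compared, 1 at an adjusted p of 0.01, 8 with replicate 1 of shCont and of shp16 both left out, and 1 to 7 when each library was left out. In shp16/shATR against shCont it was 6 whichever library was left out, 5 with limma without a filter or at an adjusted p of 0.01, and 7 with both first libraries left out, where ACLY passed (adjusted p = 0.0267 from edgeR). The share of all genes called higher moved as well. In shp16 against shCont it was 7.23% in the main fit, 3.64% with only the groups compared and 2.22% with limma without a filter. In shp16/shATR against shp16 it was 2.73% in the main fit and 8.2% with only the groups compared. A stricter threshold lowers all such counts by construction. The cause of the other changes was not tested. DESeq2 gave the same 7, 3 and 6 genes. No gene of the 10 changed direction under another scaling. Upper-quartile scaling moved the split over all calls from 48.8% higher and 51.2% lower to 38.5% and 61.5% in shp16 against shCont, and from 43.8% and 56.2% to 54.2% and 45.8% in shp16/shATR against shp16.

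Directions turned in 5 results, none of them past the test. ACACA in shp16/shATR against shp16 was −0.00193 without a filter on low counts and −0.0503 to 0.103 when each library was left out. In shp16/shATR against shCont the range over left-out libraries was −0.0232 to 0.143 for FADS2, −0.077 (without shCont replicate 1) to 0.127 for ACSL3 and −0.195 to 0.0151 (without shCont replicate 1) for SREBF1. Without both first libraries, ACSL3 was −0.0812 and SREBF1 0.0125 in that comparison, and ACSL4 was −0.0427 in shp16 against shCont, where it was 0.29 with all libraries. Replicate numbers did not pair the libraries, since deviations of same-numbered libraries correlated by −0.15 to 0.168. With the number as a replicate block, 5, 2 and 6 of the 10 genes passed in the 3 comparisons, each of them higher. Of all genes, 5.7%, 1.64% and 9.5% were higher in these fits, against 7.23%, 2.73% and 10.9% in the main fit. The 10 genes had 318 to 39838 counts per library, the fewest in FADS2.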

Other observations

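Of 14 genes of glycerolipid synthesis and storage, 3 rose and 2 fell in shp16 against shCont, against 7.23% and 7.59% of all tested genes. Their median log2 fold change was −0.07. PLIN2, which coats lipid droplets, was at 35.5, 32.8 and 31.6 FPKM in shCont, 53.9, 54.3 and 57.1 in shp16 and 53.9, 55.4 and 53.7 in shp16/shATR, a rise of 0.73 ± 0.10 with p16 knockdown (SE, adjusted p = 0.000679 from edgeR). GPAM, the mitochondrial acyltransferase of the first step of glycerolipid synthesis, rose by 0.72 ± 0.18 (adjusted p = 0.0224, and 0.0808 without shp16 replicate 1). DGAT2, a triglyceride synthase, rose by 1.42 ± 0.31 (adjusted p = 0.0109) at a low level of 0.0861 FPKM in shCont and 0.232 in shp16. AGPAT4 and AGPAT3, which acylate lysophosphatidic acid, fell by 0.89 ± 0.19 and 0.44 ± 0.11 (adjusted p = 0.00818 and 0.0205). With the ATR hairpin 0 of the 14 changed at an adjusted p under 0.05 by edgeR or DESeq2, against 2.73% higher and 3.49% lower of all tested genes by edgeR. At an unadjusted p under 0.05, 1 of the 14 was higher and 1 lower. Without shCont replicate 1, 2 rose and 1 fell, against 8.94% and 11% of all genes.

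Of 21 genes of fatty acid oxidation, 19 were tested, and 1 rose and 1 fell with p16 knockdown, against 7.23% and 7.59% over all tested genes. Without shCont replicate 1, 4 rose and 2 fell, against 13.4% and 12.5%. With the ATR hairpin 2 rose and 0 fell, against 2.73% and 3.49%. Without shCont replicate 1, 4 rose and 1 fell in that step, against 8.94% and 11%. CPT1A, the entry step of fatty acids into mitochondria and inhibited by the malonyl-CoA that ACACA and ACACB make, was at 2.91, 3.32 and 3.08 FPKM in shCont, 7.45, 6.45 and 5.78 in shp16 and 10.5, 9.90 and 11.4 in shp16/shATR. It rose in both steps, 2.14-fold (adjusted p = 0.000335) and 1.60-fold (adjusted p = 0.0122 from edgeR), and it kept its call in both steps without shCont replicate 1, without shp16 replicate 1 and without both. CPT2, the next carnitine enzyme, was at −0.20 ± 0.11 with p16 knockdown (adjusted p = 0.249) and rose by 0.53 ± 0.11 with the ATR hairpin (adjusted p = 0.0142). DECR1, needed to oxidise polyunsaturated chains, fell by 0.56 ± 0.14 with p16 knockdown (adjusted p = 0.0211, and 0.0517 without shp16 replicate 1). The median log2 fold change of the list was −0.03 with p16 knockdown and 0.09 with the ATR hairpin.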
